A study of Mus musculus with 5 samples.

Results

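CpG-poor promoters are the start regions of genes that hold few CpG sites. They were taken from the protein-coding genes of GENCODE vM21 on the autosomes of the mouse assembly GRCm38, as the 1000 bp on each side of the transcription start site (TSS, the annotated 5′ end of the gene). A promoter was counted as CpG-poor when it held fewer than 20 CpG dyads, a dyad being a CpG with the cytosines of both strands added. It also needed at least 20 calls, a call being the read-out of 1 cytosine in 1 read, in every library. Of 4410 promoters with fewer than 20 dyads, 2469 passed the minimum of calls, out of 18704 autosomal promoters that passed it at any CpG number. The filter removed the promoters with the fewest CpGs. It kept 3 of 429 promoters with 0 to 4 dyads, 479 of 1571 with 5 to 9, 995 of 1339 with 10 to 14 and 992 of 1071 with 15 to 19.

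DNA methylation was measured by whole-genome bisulfite sequencing (WGBS), in which a methylated cytosine is read as C and an unmethylated one as T. The samples were blasts of acute myeloid leukemia (AML) from the bone marrow of transplanted mice, with the strain labelled C57BL/6, sorted as live donor-derived cells (CD45.2+) without the surface markers CD3, B220 and Ter119 of T cells, B cells and erythroid cells. All 5 leukemias were Cebpa-/p30, with a deleted Cebpa allele and an allele from which just the shorter CEBPA protein, p30, is made, CEBPA being a transcription factor of myeloid cells. They were Tet2+/+ in 2 libraries (numbered 23 and 24) and Tet2-/- in 3 libraries (numbered 5, 7 and 8), and the question was what loss of the TET2 enzyme changes. Bone marrow of donor mice was transplanted into irradiated recipients, and the floxed alleles were then deleted with Mx1-Cre, which is switched on by poly(I:C) and acts in hematopoietic and in some other cells. The age of the mice is not in the labels used here.

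TET enzymes oxidise the methyl group of methylated cytosine, which leads to its replacement by an unmethylated cytosine. Most genes that are active in every cell start in a CpG island, a dense stretch of CpGs that is kept free of methylation whether or not the gene is in use. Many genes of a single tissue, such as those of neutrophil granules, liver enzymes or odorant receptors, start outside islands. Their few CpGs are methylated in most tissues and tend to lose methylation where the gene is in use.

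The sequences show how sparse such start sites are. Each line holds the 200 bases upstream of the TSS, read on the strand of the gene from the GRCm38 assembly of RefSeq, with CG in capitals. The first 3 are the largest gains among the promoters called below, the next 3 the lowest promoters of the myeloid gene lists, and the last the largest loss without overlap between the genotypes. None of these stretches overlaps an exon in GENCODE.
Rpl9-ps1 (chr11:83645622-83645821, minus strand): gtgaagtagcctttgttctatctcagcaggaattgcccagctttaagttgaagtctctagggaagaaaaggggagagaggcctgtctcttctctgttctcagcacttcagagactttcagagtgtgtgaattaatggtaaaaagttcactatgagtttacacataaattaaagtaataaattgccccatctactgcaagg
Tcl1b2 (chr12:105145814-105146013, plus strand): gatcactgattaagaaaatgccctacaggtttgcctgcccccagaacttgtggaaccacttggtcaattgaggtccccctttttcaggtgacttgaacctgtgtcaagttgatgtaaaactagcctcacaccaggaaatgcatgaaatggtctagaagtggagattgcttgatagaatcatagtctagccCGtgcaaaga
Postn (chr3:54360909-54361108, plus strand): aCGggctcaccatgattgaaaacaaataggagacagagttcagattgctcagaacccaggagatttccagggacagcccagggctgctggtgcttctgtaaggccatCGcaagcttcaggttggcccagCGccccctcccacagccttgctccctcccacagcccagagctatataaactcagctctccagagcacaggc
Pilrb1 (chr5:137858107-137858306, minus strand): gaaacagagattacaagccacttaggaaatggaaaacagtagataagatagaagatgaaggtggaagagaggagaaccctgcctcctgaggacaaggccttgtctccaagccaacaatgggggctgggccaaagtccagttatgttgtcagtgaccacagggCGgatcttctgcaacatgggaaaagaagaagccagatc
Evi2b (chr11:79523763-79523962, minus strand): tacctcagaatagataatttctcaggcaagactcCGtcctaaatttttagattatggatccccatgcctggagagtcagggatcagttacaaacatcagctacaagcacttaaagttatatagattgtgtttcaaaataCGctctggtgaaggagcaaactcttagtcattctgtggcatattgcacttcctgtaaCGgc
Gpr84 (chr15:103310613-103310812, minus strand): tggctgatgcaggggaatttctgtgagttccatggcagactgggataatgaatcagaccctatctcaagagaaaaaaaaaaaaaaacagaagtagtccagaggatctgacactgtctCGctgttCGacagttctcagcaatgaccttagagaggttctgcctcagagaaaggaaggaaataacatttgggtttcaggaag
Tbc1d14 (chr5:36593277-36593476, minus strand): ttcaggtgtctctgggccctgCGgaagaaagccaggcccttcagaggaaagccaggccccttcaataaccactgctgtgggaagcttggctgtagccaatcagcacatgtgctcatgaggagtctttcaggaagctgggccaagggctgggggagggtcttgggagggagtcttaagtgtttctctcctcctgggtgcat
The stretch of Rpl9-ps1 holds 0 CpGs and that of Postn 3, so the level of a promoter rests on a few positions within 1000 bp on either side. Postn carries a TATA box (TATAAA, in tatataaa) near the end of its line. Over the whole set the median promoter had a GC content of 43.5% and 0.139 of the CpGs that its C and G content would give by chance, against 58.9% and 0.751 at the 5236 promoters with 100 or more dyads, called CpG-rich here.

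The level of a promoter is the weighted methylation level, the methylated calls divided by all calls over its dyads. Calls on the autosomes and the X chromosome summed to between 63111735 and 110752967 per library, or 2.96 to 5.19 per dyad. A CpG-poor promoter had a median of 43 to 73 calls per library, against 388 to 824 at CpG-rich promoters. A promoter at the median depth and level of Tet2-/- library 8 (30 of 43 calls methylated) has a 95% Wilson interval from 54.9% to 81.4%. In Tet2-/- library 7 the same interval (57 of 73 calls) runs from 67.3% to 86.0%. Such intervals cover counting error only. Levels of single CpG-poor promoters are therefore coarse, and differences of a few points at a single promoter were not detectable at this depth.

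CpG-poor promoters were largely methylated in the blasts, with a higher level in each Tet2-/- library. With all calls pooled, libraries 23 and 24, of Tet2+/+ blasts, stood at 63.7% and 58.9%. Libraries 5, 7 and 8, of Tet2-/- blasts, stood at 68.5%, 73.4% and 65.5%. Values per library are given in this order throughout. The genotypes did not overlap, and library 8 was close to library 23. Tet2-/- (69.1% ± 3.98, SD, n = 3) thus exceeded Tet2+/+ (61.3% ± 3.41, SD, n = 2) by 7.85 points, which did not pass (two-sided exact permutation p = 0.2). Over the 10 ways to split 2 libraries from 3, this test reaches 0.1 at best. The difference was 5.44 points without library 24 and 10.3 points without library 23. Sorted blasts can differ in their mix of cell types, and a shift in that mix cannot be told apart from a gain of methylation per cell.

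Within the set, the number of dyads went with small differences in level from 5 dyads upward. Promoters with 5 to 9 dyads had a pooled level of 58.1% ± 4.55 in Tet2+/+ (SD, n = 2) and 65.2% ± 4.39 in Tet2-/- (SD, n = 3). Those with 10 to 14 dyads had 61.3% ± 3.75 and 69.1% ± 4.19. Those with 15 to 19 dyads had 62.0% ± 2.93 and 70.0% ± 3.74. These 3 classes thus lay within 5 points of each other, and the differences between the genotypes were 7.14, 7.81 and 8.01 points. The 3 members with 0 to 4 dyads were lower, at 38.0% ± 7.68 and 50.4% ± 7.38, on a median of 22 to 43 calls per library. The limit of 20 dyads marked no step. Just inside it, the 402 promoters with 18 or 19 dyads had 61.8% in Tet2+/+ and 69.5% in Tet2-/-, and just outside it the 393 promoters with 20 or 21 dyads had 58.8% and 67.9%. Farther out the level was much lower, at 20.6% ± 2.0 and 23.9% ± 0.389 for the 10999 promoters with 20 to 99 dyads and at 6.6% ± 0.624 and 8.33% ± 0.425 for CpG-rich promoters.

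**Figure D1:**
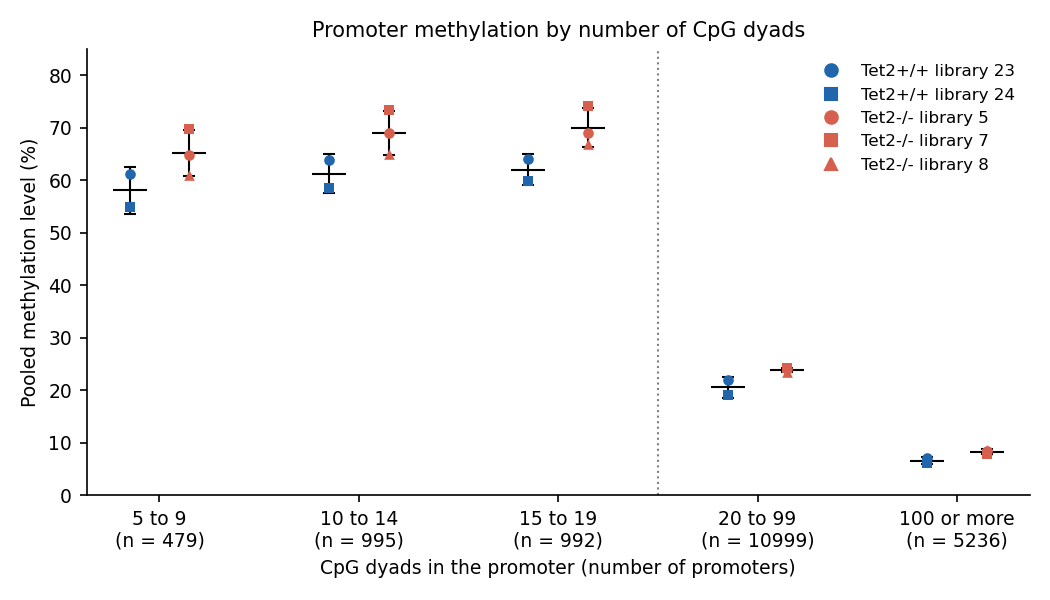
Pooled methylation level (%) of promoters grouped by their number of CpG dyads, with a point per library, a bar at the mean of each genotype and whiskers of 1 SD (n = 2 and n = 3). Left of the dotted line, the 3 CpG-poor classes drawn (the 3 promoters with 0 to 4 dyads are left out) lie between 58.1% and 70.0% in the mean, and right of it the CpG-rich class lies at 6.6% and 8.33%.

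Measured in points, the difference between the genotype means was 7.85 at CpG-poor promoters, 3.34 at 20 to 99 dyads and 1.73 at CpG-rich promoters. It was not particular to the set, since the promoters just outside the limit, with 20 or 21 dyads, differed by 9.04 points and those just inside it by 7.66. The level of CpG-poor promoters exceeded that of CpG-rich promoters by 56.7 and 52.7 points in Tet2+/+ and by 60.1, 65.5 and 56.8 points in Tet2-/-. The excess was 54.7 ± 2.79 points (SD, n = 2) against 60.8 ± 4.40 points (SD, n = 3). That difference of 6.12 points did not pass the exact permutation test over libraries (p = 0.2). Libraries 23 and 8 were nearly the same in it. Relative to the Tet2+/+ level the order of these 3 classes was the other way round, with 12.8% more methylation at CpG-poor promoters, 16.2% more at 20 to 99 dyads and 26.3% more at CpG-rich promoters.

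Promoter by promoter, the difference between the genotype means had a median of 7.29 points over the CpG-poor promoters, against 2.22 points over all 19455 promoters tested on the autosomes and X. It was above 0 at 82.1% of CpG-poor promoters and at 76.7% of all. The median was 9.30 points against library 24 alone and 4.77 points against library 23 alone. Libraries of the same genotype also differed across the set. Library 23 was above library 24 by a median of 4.08 points, and library 7 was above library 8 by 7.26 points, which is close to the difference between the genotypes. At 820 of the 2469 promoters (33.2%) all 3 Tet2-/- libraries lay above both Tet2+/+ libraries, which holds for 32.8% of all promoters tested. At 50 promoters (2.03%) they lay below both, which holds for 4.05% of all. The share of CpG-poor promoters above without overlap is close to the share among all promoters and says little about these promoters.

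The levels were spread over the whole scale in both genotypes. The median CpG-poor promoter stood at 63.7% in Tet2+/+ and at 73.4% in Tet2-/-, and the upper quartiles at 76.1% and 83.2%. Promoters above 80% numbered 448 (18.1%) in Tet2+/+ and 802 (32.5%) in Tet2-/-. Promoters below 20% numbered 108 (4.37%) and 77 (3.12%). As a mean over the 5 libraries, 79 CpG-poor promoters (3.20%) were below 20%, while 4663 of 5236 CpG-rich promoters (89.1%) were.

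**Figure D2:**
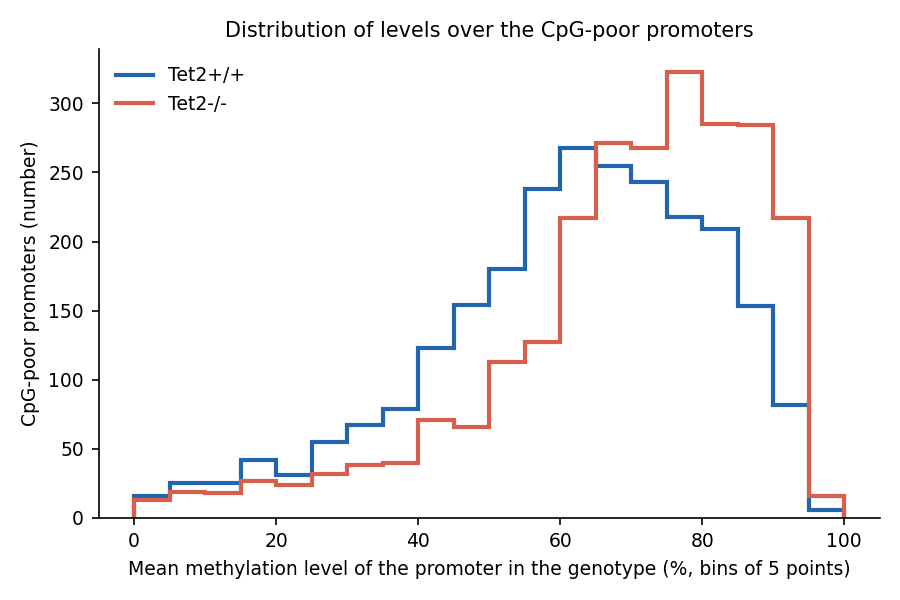
Number of CpG-poor promoters in each 5-point bin of mean methylation level (%), as outlines for Tet2+/+ (2 libraries) and Tet2-/- (3 libraries). The outline of Tet2-/- is shifted to the right, with 802 promoters above 80% against 448 in Tet2+/+.

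The difference varied with the level at which a promoter stood. Promoters were grouped by their mean over all 5 libraries. The 79 promoters below 20% had a pooled level of 10.5% ± 0.292 in Tet2+/+ (SD, n = 2) and 12.1% ± 1.39 in Tet2-/- (SD, n = 3), and a median difference of 1.36 points. The 170 promoters from 20% to 40% had a median difference of 5.18 points, the 491 from 40% to 60% one of 9.67 points and the 1110 from 60% to 80% one of 8.77 points. The 619 promoters from 80% upward had a median difference of 4.65 points. All 3 Tet2-/- libraries lay above both Tet2+/+ libraries at 12.7% of the promoters below 20% and at 35.4% of those from 60% to 80%. The grouping uses the same values as the differences, so these are descriptions. Without library 7 the median below 20% was -0.43 points, and in the other classes it stayed above 0 with each library left out. Without library 24 the medians of the classes from 20% upward were 3.46, 6.29, 6.11 and 3.44 points.

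Around the TSS, CpG-poor promoters had a shallow dip rather than the wide unmethylated stretch of CpG-rich ones. In bins of 200 bp, the pooled level in Tet2+/+ was 65.8% ± 3.01 (SD, n = 2) in the outermost upstream bin, 53.3% ± 3.92 in the 200 bp just upstream of the TSS, 57.2% ± 3.06 in the 200 bp just downstream and 62.8% ± 4.53 in the outermost downstream bin. In Tet2-/- the same bins stood at 73.5% ± 4.74 (SD, n = 3), 61.5% ± 4.78, 64.4% ± 3.67 and 70.1% ± 4.0. The difference between the genotypes was 7.14 to 8.87 points in the 10 bins. The depth of the dip, taken as the mean of the outermost bins minus the bin just upstream of the TSS, was 10.9 and 11.1 points in Tet2+/+ and 10.2, 9.95 and 10.8 points in Tet2-/- (exact permutation p = 0.2). The surroundings differed by a like amount. The upstream flank, from 5000 to 1000 bp before the TSS, had 63.3% ± 3.53 (SD, n = 2) and 70.6% ± 3.55 (SD, n = 3), and the gene body beyond 1000 bp had 66.4% ± 3.5 and 73.5% ± 3.38.

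Of the sets profiled, the dip was deepest at the low promoters. The low and high sets were chosen by their level in this same window, so these are descriptions. The 79 promoters below 20% stood at 2.63% ± 1.37 (SD, n = 2) and 4.30% ± 1.25 (SD, n = 3) in the 200 bp upstream of the TSS, and at 38.9% ± 1.24 and 46.1% ± 7.73 in the outermost upstream bin. Downstream they stayed low as far as the window reached, with 8.97% ± 0.118 and 7.77% ± 2.07 in the outermost bin. The promoters at 60% and above, by contrast, had 66.9% ± 3.72 and 75.9% ± 4.77 just upstream of the TSS against 71.1% ± 2.78 and 78.4% ± 4.34 in the outermost upstream bin.

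**Figure D3:**
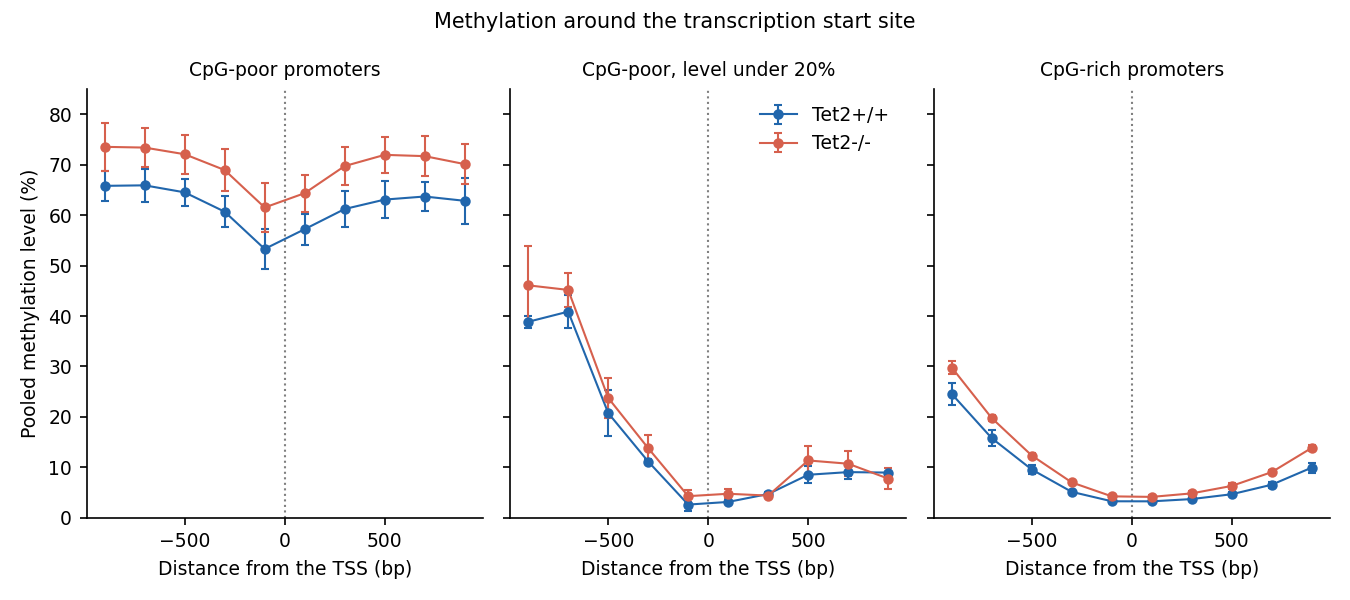
Pooled methylation level (%) in bins of 200 bp by distance from the TSS, as the mean of each genotype with whiskers of 1 SD (n = 2 and n = 3), for all 2469 CpG-poor promoters, the 79 of them below 20% and the 5236 CpG-rich promoters. CpG-poor promoters dip to 53.3% and 61.5% just upstream of the TSS, while the other sets dip to under 5%.

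The lowest promoters had almost no methylated calls. Of the 79 below 20%, 22 were in any of the 12 lists of genes with a known cell type described below, and 19 of these in the 3 myeloid lists. No methylated call was seen at Pilrb1, an activating receptor of myeloid and natural killer cells, in 258 calls, which allows a level of up to 1.16%. There was also none at Rgs18, a regulator of G protein signalling in platelets and other blood cells, in 157 calls, which allows up to 1.91%. Both limits take calls as independent. A single read can cover several CpGs, so they may be too low. The next were Mbnl1, a splicing regulator (1 library above 0, at 4.0%), and Clec2d, a C-type lectin that is a ligand of a natural killer cell receptor (2.99% and 1.43% in libraries 23 and 24, and 0%, 1.48% and 0% in libraries 5, 7 and 8). Evi2b, a membrane protein of blood cells, was at 0% in both Tet2+/+ libraries and at 0%, 1.18% and 5.45% in Tet2-/- libraries 5, 7 and 8. Its window also holds parts of Evi2 and Nf1. The lowest 10 were completed by Cd69, an activation marker of lymphocytes and myeloid cells, Gpr84, a fatty acid receptor of myeloid cells, Tespa1, of T cell receptor signalling, Hcls1, an actin regulator of blood cells, and Cnot6l, a subunit of the main deadenylase. Their means over the libraries were between 1.68% for Cd69 and 3.91% for Cnot6l. At each of these 10 promoters the genotypes overlapped. Mbnl1 and Cnot6l also have transcripts that start in windows with 135 and 234 dyads.

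At single CpGs, methylated calls were rare in 3 of the lowest promoters. Here and below, calls at a single CpG are summed over the libraries of a genotype. They therefore do not show which library carried a difference. In Pilrb1, 10 of the 11 CpGs had calls, from 436 bp upstream to 967 bp downstream of the TSS, and none was methylated in either genotype. The CpG 967 bp downstream, for example, had 9 calls in Tet2+/+ and 16 in Tet2-/-. The CpG nearest the TSS, 38 bp upstream, had 4 and 3 calls. In Evi2b, the 3 CpGs of the printed stretch, 166, 61 and 4 bp upstream, had 0 methylated calls of 7, 12 and 13 in Tet2+/+ and 0 of 15, 20 and 24 in Tet2-/-. Of its other CpGs, 4 had 1 methylated call each in Tet2-/-, of 8 calls 806 bp upstream and of 23, 10 and 10 calls 41, 950 and 962 bp downstream. The pair in the printed stretch of Gpr84, 83 and 76 bp upstream, had 0 of 14 and 0 of 18 calls methylated in Tet2+/+ and 0 of 33 and 0 of 40 in Tet2-/-. Farther upstream in Gpr84, the CpGs 639, 631 and 619 bp before the TSS had methylated calls in Tet2-/- (1 of 1, 2 of 5 and 1 of 6), where Tet2+/+ had at most 1 call each. Gpr84 also had 1 methylated call of 40 in Tet2-/- 297 bp upstream, 1 of 15 in Tet2-/- 61 bp downstream and 1 of 6 in Tet2+/+ 380 bp downstream.

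Lists of genes with a known cell type were then compared. The 3 myeloid lists (granule and secretory proteins of neutrophils, genes of monocytes and macrophages, and receptors, adaptors and adhesion molecules of myeloid cells) had 65 CpG-poor promoters, of which 19 (29.2%) were below 20%. Among the 2404 CpG-poor promoters outside these lists, 60 (2.5%) were. The mean level over the 65 promoters was 35.9% and 34.2% in Tet2+/+ and 38.0%, 42.3% and 37.5% in Tet2-/-. The other promoters had 62.1% ± 3.49 (SD, n = 2) and 70.0% ± 3.97 (SD, n = 3). The median difference was 2.25 points over the myeloid promoters and 7.36 points over the rest. The mean levels differed by 4.19 and 7.87 points, on Tet2+/+ means of 35.1% and 62.1%. For the 46 myeloid promoters at 20% or above the median difference was 3.26 points, or 2.07 without library 24 and 5.68 without library 5. Their mean level was 47.0% and 44.5% in Tet2+/+ and 49.5%, 55.0% and 49.5% in Tet2-/-, a difference of 5.57 points. With each library left out, the median difference of the 65 ranged from 1.36 to 3.87 points and that of the rest from 4.94 to 9.44 points. Here and below, called means past the threshold in edgeR's quasi-likelihood test unless another test is named. No promoter of the 3 lists was called, which says little about 65 promoters where 1.07% of all were called. At an unadjusted p under 0.05 there were 6, where 18.1% of all promoters were. The likelihood ratio test of edgeR called 1, BC100530, and limma 0. Over all promoters these tests called 4.72% and 0.396%. The lists were chosen with earlier results of these data known.

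Among the neutrophil genes (20 promoters, median level 37.9%, median difference 1.58 points), Alox5ap, which activates leukotriene synthesis, was lowest. The median difference of the list was 0.83 points without library 24, 3.40 without library 5 and 3.93 without library 8. Alox5ap stood at 4.05% and 2.67% in Tet2+/+ and at 2.05%, 10.3% and 2.22% in Tet2-/-. Ltb4r1, the receptor of leukotriene B4, was between 2.90% and 7.41% in the 5 libraries, and Lyz2, the lysozyme of myeloid cells, between 5.09% and 15.9%. Mpo, the myeloperoxidase of neutrophil granules and a defining marker of myeloid cells, was at 16.2% and 8.75% in Tet2+/+ and at 10.9%, 10.4% and 7.46% in Tet2-/-, and was named after its values were seen. The largest difference of this list was at BC100530, a stefin of neutrophils, with 23.2% and 11.4% against 47.9%, 49.4% and 32.7%. Its groups did not overlap, and it was not called (edgeR quasi-likelihood, adjusted p = 0.106). Next was Retnlg, at 56.0% and 46.9% against 67.6%, 56.8% and 76.7%, also without overlap and not called (edgeR quasi-likelihood, adjusted p = 0.477). Of the 20 promoters of the list, 5 were below 20% as a mean over the libraries, and the highest was at 71.7%.

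The genes of monocytes and macrophages had 24 CpG-poor promoters with a median level of 41.4% and a median difference of 4.52 points. Without library 24 that median was 7.60 points, above the 4.77 of the whole set in that case. Adgre1, the macrophage marker F4/80, was at 0% and 5.66% in Tet2+/+ and at 13.2%, 7.27% and 0% in Tet2-/-. Clec4e, a receptor for microbial glycolipids, was at 19.8% and 1.63% against 4.68%, 3.53% and 6.45%, so its lower mean in Tet2-/- rested on library 23. The largest differences were at Msr1, a scavenger receptor (44.8% and 60.9% against 76.3%, 86.4% and 68.0%), and Adgre4, an adhesion receptor (higher by 22.0 points). Neither was called (adjusted p of edgeR's quasi-likelihood test 0.225 and 0.276).

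Receptors, adaptors and adhesion molecules of myeloid cells were the lowest list, with a median level of 24.2% and a median difference of 1.71 points over 21 promoters. That median was 0 points without library 7, 0.95 without library 24, 1.06 without library 8, 2.70 without library 23 and 3.32 without library 5. The groups did not overlap at 6 of them in the upward direction and at 1 in the downward direction, where 32.8% and 4.05% of all promoters did the same. Nlrp12, an inhibitor of inflammatory signalling, was at 20.3% and 14% in Tet2+/+ and at 43.6%, 32.9% and 34.9% in Tet2-/-, a difference of 20.01 points (edgeR quasi-likelihood, adjusted p = 0.139). At Mefv, the gene of pyrin, library 7 stood alone at 58.6%, while the other 4 libraries were between 14.6% and 16.7%.

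**Figure D4:**
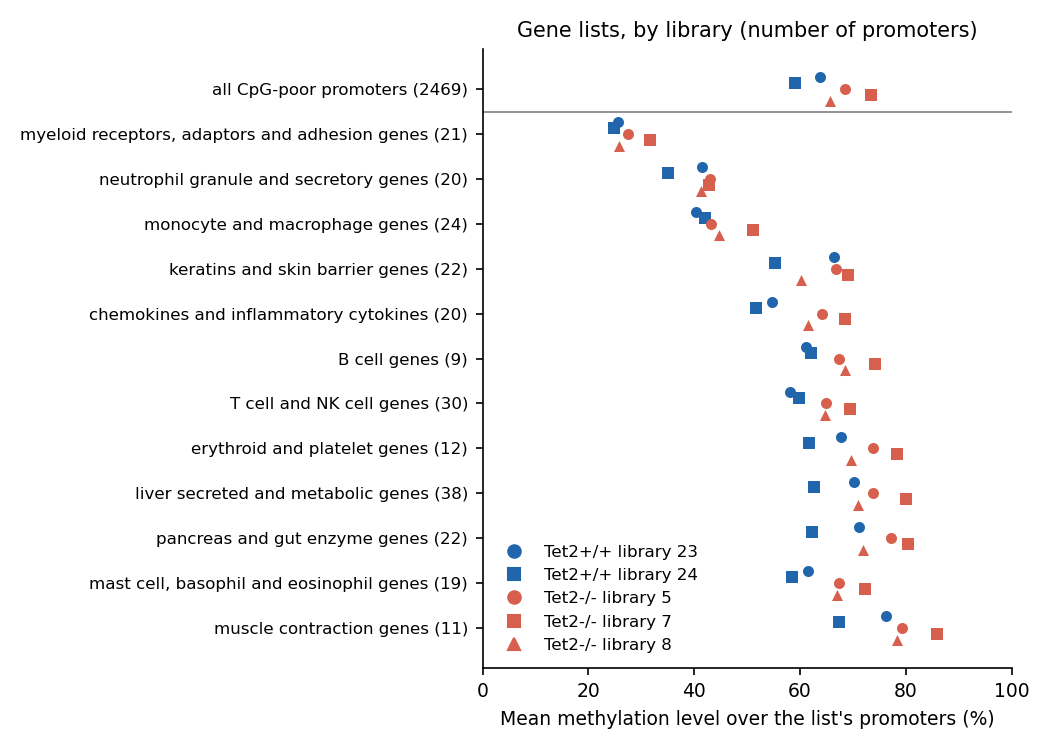
Mean methylation level (%) over the CpG-poor promoters of each gene list, with a point per library and the number of promoters in brackets, below the same for all 2469. The 3 myeloid lists lie between 24.7% and 51.2%, and the other 9 lists between 51.7% and 85.9%.

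Listed genes of lymphoid, erythroid and platelet lineages were methylated at most of their CpG-poor promoters, like the set as a whole (median level 69.0%). The sort removed cells with CD3, B220 or Ter119, a gate that does not by itself remove natural killer cells or platelets. The 9 B cell promoters had a median level of 67.0%, the 30 T cell and natural killer cell promoters 70.0%, and the 12 erythroid and platelet promoters 70.1%. Their median differences were 8.73, 8.38 and 10.4 points, the last being 6.28 without library 24. Rag1, which cuts the immunoglobulin and T cell receptor genes for rearrangement, was between 54.8% and 66% in the 5 libraries. Low members were Klrd1, a receptor of natural killer cells (10.0% to 25.8%), Sh2d1b1, an adaptor of natural killer cells (14.7% to 25.7%), Cd7, a surface protein of T cells (18.4% to 28%) and Bank1, an adaptor of B cells (17.2% to 32.5%). Other low promoters, such as those of Cd69 and Tespa1 above, are outside these lists. A low promoter is not evidence that the gene is expressed, which was not measured here.

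Mast cell, basophil and eosinophil genes had a median level of 77.3% over 19 promoters and a median difference of 7.39 points. Their lowest members were Il5ra, the interleukin 5 receptor of eosinophils (16.4% to 32.8%), and Cpa3, a protease of mast cells (18.8% to 51.4%). Ear6 and Ear1, ribonucleases of eosinophils, were higher by 18.9 and 24.7 points in Tet2-/-, with adjusted p of 0.119 and 0.227 in edgeR's quasi-likelihood test and 0.0444 and 0.131 in the likelihood ratio test. Ear1 belongs to a family of near-identical copies whose reads may be assigned to the wrong copy.

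Chemokines and inflammatory cytokines had a median difference of 13 points over 20 promoters, the highest of the 12 lists with all libraries and these limits. The order of the lists was not stable. Without library 23 the median was 12.1 points, below those of liver genes (12.95) and of pancreas and gut enzymes (12.6). Within 500 bp of the TSS it was 11.5, below pancreas and gut enzymes (12.1). Below 30 dyads it was 8.84, under erythroid and platelet (10.4), muscle (9.94), liver (9.50) and T cell and natural killer cell genes (8.94). Below 10 dyads it was 5.88, under the 6.74 of all promoters of that limit. The mean level was 54.7% and 51.7% in Tet2+/+ and 64.2%, 68.6% and 61.4% in Tet2-/-. At 12 of the 20 promoters all 3 Tet2-/- libraries were above both Tet2+/+ libraries, and at 0 below both, against 32.8% and 4.05% of all promoters. None was called, where 1.07% of all promoters were. At an unadjusted p under 0.05 there were 5, where 18.1% of all promoters were. The likelihood ratio test called 2, Ifnb1 (named after its values were seen) and Il24, and limma called 0. Over all promoters these tests called 4.72% and 0.396%. Il24, a cytokine of the interleukin 10 family, was at 53.1% and 41.6% against 65.6%, 81.6% and 75.0% (edgeR quasi-likelihood, adjusted p = 0.118). Il1a, interleukin 1 alpha, was at 24.4% and 27.9% against 40.4%, 63.1% and 46.7% (adjusted p = 0.163). Of the low members, the myeloid chemokine Ccl9 overlapped between the genotypes (13.6% and 36.2% against 12.6%, 23.4% and 11.6%). Ccl6 was between 25.6% and 33.3% in the 5 libraries, and Ccl4, a chemoattractant made by activated leukocytes, was at 10.6% and 26.1% in Tet2+/+ and at 39.2%, 39.1% and 20.5% in Tet2-/-.

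Genes of tissues outside the blood were likewise methylated at most of their CpG-poor promoters, where the median level of the whole set was 69.0%. Liver genes (38 promoters) had a median level of 75.6%, pancreas and gut enzymes (22) 76.4%, muscle contraction genes (11) 78.8% and keratins and skin barrier genes (22) 63.8%. None of these 93 promoters was below 20%. The median differences were 8.77, 9.77, 9.77 and 2.57 points. They moved with single libraries. Without library 24 they were 3.37, 4.50, 2.58 and -2.11 points, and without library 23 12.95, 12.6, 10.7 and 7.43 points, where the whole set had 4.77 and 9.30. The heart muscle genes Mybpc3 (68.1% and 68.6% against 90.5%, 99.2% and 91.2%) and Myh6 (76.8% and 64.1% against 83.2%, 93.3% and 92.6%) did not overlap between the genotypes. Mybpc3 had an adjusted p of 0.055 in edgeR's quasi-likelihood test, 0.000993 in the likelihood ratio test and 0.097 in limma. Slc26a3, an anion exchanger of the gut, was at 56.6% and 49.1% against 76.7%, 88.4% and 89.4% (adjusted p = 0.067, and 0.0064 in the likelihood ratio test).

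Large gene families made up much of the set. Olfactory receptors had 326 members out of 1090 CpG-poor promoters on the autosomes, a median level of 69.3% and a median difference of 6.95 points. Vomeronasal receptors, which detect pheromones, had 75 of 324, with 64.9% and 7.83 points. Cytochrome P450 genes (38 members) had 64.8% and 8.23 points, serpins (27) 68.7% and 7.13 points, keratin-associated proteins (27) 70.4% and 8.60 points, defensins (23) 74.0% and 8.08 points and zinc finger genes named Zfp (22) 71.2% and 6.52 points. Solute carriers (29) had 74.7% and 6.52 points. With all libraries, each of these medians lay within 3 points of the 7.29 points of the whole set. The zinc finger genes had 12.7 points without library 23 and 2.39 without library 24, beside 9.30 and 4.77 for the whole set. Other families moved likewise. Without library 24 the vomeronasal receptors had 2.55 points, the defensins 3.73, the keratin-associated proteins 4.28, the olfactory receptors 3.93, the cytochrome P450 genes 4.79 and the solute carriers 4.10, and without library 7 the serpins had 3.13, where the whole set had 5.17. The 18 C-type lectins, with 4 members below 20%, had a median difference of 3.03 points, and the 13 killer cell lectin receptors one of 11.4 points. Neither kept its side of the whole set. The C-type lectins had 0.82 points without library 23 and 8.44 without library 24, and the killer cell lectin receptors had 7.30 and 11.3. The lowest olfactory receptor promoters were Olfr433, between 8.33% and 27.5%, and Olfr312, at 8.11% and 11.5% against 25.7%, 37.5% and 13%.

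A test per promoter called few of them. In edgeR's quasi-likelihood test, adjusted by Benjamini-Hochberg over all 19455 promoters at 0.05, 9 CpG-poor promoters passed (0.365%), where 209 (1.07%) passed among all. All 9 were higher in Tet2-/- and 0 were lower. Of the 209 among all promoters, 206 were higher and 3 lower, so this direction was not particular to the set. At an unadjusted p under 0.05 there were 348 CpG-poor promoters (14.1%, against 18.1% of all), of which 2 were lower in Tet2-/-. Over all promoters 114 of 3521 were lower. The likelihood ratio test of edgeR called 83 (3.36%, against 4.72% of all), limma 6 (0.243%, against 0.396%) and limma after subtraction of each library's median 0 (against 0.0463%), and none of these was lower. Among promoters with 20 to 99 dyads 1.4% passed, and among CpG-rich promoters 0.840%, both with more calls per promoter. The calls changed when libraries were left out. Without library 23 or without library 24, 0 CpG-poor promoters passed (21 and 0 of all promoters). In these fits Tet2+/+ is a single library, assumed to vary like the Tet2-/- libraries, which alone give the spread. Without library 7 only Rnf11 passed (105 of all), without library 8 there were 2 (81 of all) and without library 5 there were 8 (298 of all), of which 4 were among the 9.

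Rpl9-ps1 had the largest gain of the 9. Its level was 8.33% and 43.6% in Tet2+/+ and 77.3%, 96.8% and 89.7% in Tet2-/-, a difference of 62.0 points (edgeR quasi-likelihood, adjusted p = 0.033). The Tet2+/+ libraries were 35.3 points apart. The gene lies on chromosome 11 (TSS at 83645621, minus strand) and is a copy of the ribosomal protein gene Rpl9, listed as protein-coding in GENCODE, so that reads of other copies may be counted here. All 11 of its CpGs lie downstream of the TSS. The CpG 264 bp downstream was methylated in 3 of 15 calls in Tet2+/+ and 15 of 16 in Tet2-/-, and the one 305 bp downstream in 2 of 14 and 19 of 24.

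Tcl1b2, of the Tcl1 family of kinase coactivators, lies on chromosome 12 (TSS at 105146014, plus strand). It was at 47.3% and 20% in Tet2+/+ and at 73.4%, 80.7% and 74.6% in Tet2-/- (difference 42.6 points, edgeR quasi-likelihood adjusted p = 0.043). The only CpG of its printed stretch, 10 bp upstream, was methylated in 4 of 19 calls in Tet2+/+ and in 20 of 24 in Tet2-/-, and the CpG 72 bp downstream in 2 of 27 and 17 of 35. The CpGs 683 bp upstream (7 of 8 and 23 of 26), 220 bp downstream (5 of 5 in both) and 866 bp downstream (2 of 2 and 11 of 12) were high in both genotypes.

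Postn, the gene of the matrix protein periostin on chromosome 3 (TSS at 54361109, plus strand), was at 40.8% and 41.7% in Tet2+/+ and at 74.6%, 81.7% and 92.3% in Tet2-/- (difference 41.6 points, edgeR quasi-likelihood adjusted p = 0.046). The CpGs of its printed stretch, 199, 93 and 71 bp upstream, were methylated in 0 of 8, 0 of 4 and 0 of 2 calls in Tet2+/+ and in 6 of 15, 6 of 8 and 5 of 6 in Tet2-/-. The CpG 16 bp downstream showed no gain, with 1 of 9 calls methylated in Tet2+/+ and 0 of 18 in Tet2-/-, and neither did those 901 bp upstream (5 of 5 and 19 of 20) and 431 bp downstream (2 of 2 and 4 of 4).

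Rnf11, an adaptor of ubiquitin ligases on chromosome 4, had the smallest p of the 9, with 51.7% and 52.1% in Tet2+/+ and 88.2%, 92.0% and 91.7% in Tet2-/- (difference 38.7 points, edgeR quasi-likelihood adjusted p = 0.014). Its annotated 5′ end may not be the start in use, since another protein-coding transcript of the gene starts in a window with 119 dyads. Vmn2r7 (26.5% and 30.6% against 70.7%, 68.0% and 66.7%) is a vomeronasal receptor and Tas2r143 (54.9% and 61.9% against 90.5%, 97.6% and 86.0%) a bitter taste receptor. Their adjusted p in edgeR's quasi-likelihood test were 0.048 and 0.041. The olfactory receptors Olfr1393 and Olfr279 and the lipase gene Lipn completed the list, with differences of 37.3, 35.4 and 37.3 points and adjusted p of 0.043, 0.047 and 0.049. Limma called 4 of the 9 and the likelihood ratio test all 9. In each of the 9, the 3 Tet2-/- libraries lay above both Tet2+/+ libraries.

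**Figure D5:**
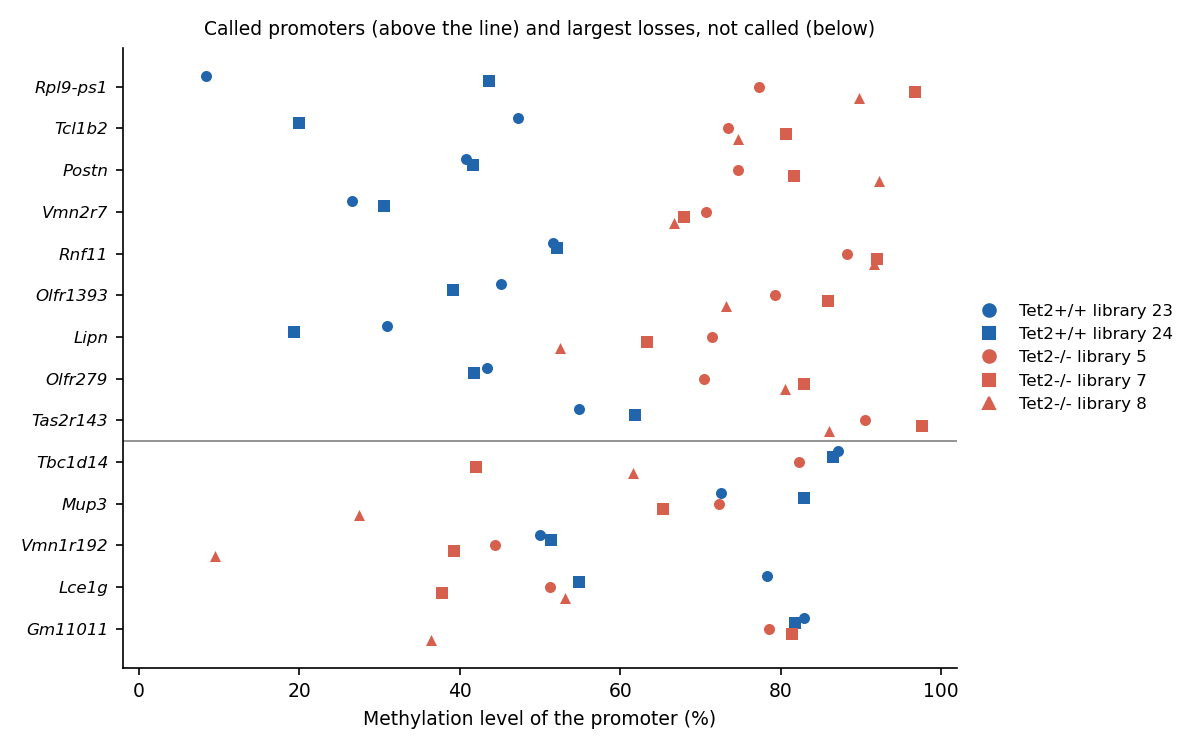
Methylation level (%) of the 9 called CpG-poor promoters (above the line) and of the 5 promoters with the largest losses without overlap, none of them called (below the line), with a point per library. At each called promoter the 3 Tet2-/- libraries lie at 52.5% or above and the 2 Tet2+/+ libraries at 61.9% or below.

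Losses were fewer, and none was called, where 3 of the 209 called among all promoters were losses. The largest without overlap was at Tbc1d14, a regulator of autophagy on chromosome 5, with 87.2% and 86.5% in Tet2+/+ and 82.3%, 42.0% and 61.6% in Tet2-/- (difference -24.9 points, edgeR quasi-likelihood adjusted p = 0.170). Without library 7 the difference was -14.9 points. Its CpGs 77, 99 and 107 bp downstream were methylated in 8 of 8, 7 of 8 and 8 of 8 calls in Tet2+/+ and in 17 of 45, 15 of 48 and 15 of 41 in Tet2-/-, while the CpG 990 bp upstream had 11 of 11 and 23 of 24. Another transcript of Tbc1d14 starts in a window with 105 dyads. Mup3, a major urinary protein of the liver, was at 72.5% and 82.9% against 72.3%, 65.3% and 27.5%. Gm11011 was at 82.9% and 81.8% against 78.6%, 81.4% and 36.4%, so that library 8 made most of the difference in both. Vmn1r192 was at 50% and 51.4% against 44.4%, 39.3% and 9.52%, a difference of -19.6 points that was -8.81 without library 8. Lce1g, of the skin barrier, was at 78.3% and 54.8% against 51.2%, 37.8% and 53.1%, a difference of -19.2 points that was -7.44 without library 23. Their adjusted p in edgeR's quasi-likelihood test were 0.476 and 0.425.

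The study lists genes whose RNA was lower or higher in Tet2-/- leukemias, and only membership in these lists was used. Of 176 genes lower in RNA, 27 had a CpG-poor autosomal promoter and 22 were members. Their mean level was 48.4% and 51.4% in Tet2+/+ and 59.2%, 65.8% and 61.4% in Tet2-/-. The difference was positive at 21 of the 22. Tespa1 and 1700109H08Rik, the lowest and the highest promoter of the list, differed by 1.78 and -0.79 points. The median difference was 8.51 points against 7.29 over all CpG-poor promoters. Without library 23 the order turned, with 7.55 against 9.30 points. It also turned without library 8 (8.62 against 8.89) and with calls thinned to the shallowest library (7.17 against 7.28). The order held without library 24 (8.66 against 4.77), without library 5 (11.1 against 7.46) and without library 7 (7.43 against 5.17). As means over promoters, the genotypes differed by 12.2 points in the list and by 7.78 points over all CpG-poor promoters. At 9 of them the genotypes did not overlap in the upward direction, as at 32.8% of all promoters, and 1, Postn, was called, where 1.07% of all were. Limma called 2, Postn and Adamdec1, and the likelihood ratio test 3, these and Tmc3. Over all promoters these tests called 0.396% and 4.72%. Adamdec1, a protease of macrophages and dendritic cells, was at 32.5% and 28.9% in Tet2+/+ and at 72.9%, 77.5% and 64.5% in Tet2-/- (difference 40.9 points), with an adjusted p of 0.053 in edgeR's quasi-likelihood test, 0.0493 in limma and 0.00206 in the likelihood ratio test. Tmc3, of the family of transmembrane channel-like proteins, was at 15.6% and 22.6% against 45.8%, 64.0% and 48.1% (difference 33.5 points, adjusted p = 0.065, and 0.00658 in the likelihood ratio test). Fmo1, a drug-metabolising oxygenase, and Sec16b, of protein export from the endoplasmic reticulum, were higher by 20.4 and 18.9 points, with adjusted p of 0.224 and 0.170.

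Of 58 genes higher in RNA, 5 were members, and none was called or without overlap, where 1.07% of all promoters were called and 32.8% and 4.05% lay above and below without overlap. Ly6c2, a surface marker of monocytes, was at 19% and 21.7% in Tet2+/+ and at 8.11%, 43.6% and 44.0% in Tet2-/-, and Clec4e was among the low promoters described above. Ankrd66 was between 81.2% and 95.8% in the 5 libraries, Msantd1 between 33.3% and 47.5% and Gm12666 between 75.0% and 85.2%. With 5 promoters, no statement on the group was made.

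The promoters were also compared by what their sequence holds, in the window from 250 bp before to 50 bp after the TSS. TATAAA between 40 and 11 bp upstream on the strand of the gene was present at 156 members (6.32%), against 2.24% of all promoters tested. These 156 promoters had a pooled level of 60.9% ± 5.78 in Tet2+/+ (SD, n = 2) and 71.5% ± 4.28 in Tet2-/- (SD, n = 3), and a median difference of 9.07 points against 7.12 without it (5.40 and 4.69 without library 24). AGATAA, the core of GATA factor sites, was searched on both strands and found at 18.3% of members and 8.99% of all promoters. TTGCNNAA, which fits CEBP sites, was found on either strand at 16.1% and 9.82%. Members with and without these motifs differed little in level. With TTGCNNAA the level was 58.7% ± 3.89 and 66.3% ± 4.32, and without it 61.8% ± 3.32 and 69.7% ± 3.91. The CpG-bearing form TTGCGCAA was present at 1 member only, against 0.211% of all promoters. Members were chosen for few CpGs, which by itself lowers the share of a motif with a CpG. Shares of motifs were not adjusted for GC content, with a median of 43.5% at members and 52.2% over all promoters.

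Members with GAGGAAGT, a sequence bound by the myeloid ETS factor PU.1, had lower levels. It was present on either strand at 117 members (4.74%, against 2.94% of all promoters), which had a pooled level of 51.2% ± 2.21 in Tet2+/+ (SD, n = 2) and 58.9% ± 3.81 in Tet2-/- (SD, n = 3). Of these 117, 9.40% were below 20%, against 2.89% of the members without it, and the median differences were 8.17 and 7.25 points (8.46 and 9.40 without library 23). Of the 79 promoters below 20%, 11 held it. A match is a run of letters, and binding was not measured.

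Repeats and other starts were compared last. Members with at least 40% of their window in annotated repeats (213) had 65.7% ± 1.96 (SD, n = 2) and 71.4% ± 3.97 (SD, n = 3), and a median difference of 5.17 points, against 62.0% ± 3.53 and 70.5% ± 4.0 and a median of 7.58 points at the 354 members with under 10%. Without library 24 these medians were 4.84 and 5.54 points, and without library 7 they were 3.26 and 5.58. Another protein-coding transcript start of the same gene, in a window with at least 50 dyads, existed for 211 members. Such members made up 8.86% of the promoters below 20%, 9.41% from 20% to 40%, 4.48% from 40% to 60%, 6.40% from 60% to 80% and 15.3% at 80% and above. Their pooled level was 65.1% ± 2.29 and 72.6% ± 2.88. The 79 members that share part of their window with another gene's promoter had 58.3% ± 2.17 and 66.5% ± 4.37. The highest promoters of the set, which included Olfr645, Tas2r137, Myo15, a myosin of inner ear hair cells, 1700109H08Rik and Aspn, a matrix protein, were above 89% in every library in both genotypes.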

How the data were processed

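DNA of sorted blasts was bisulfite converted and made into libraries with a random-primed kit. Per the labels and methods, Trim Galore 0.4.3 was used for trimming, and Bismark 0.19.1 with Bowtie2, in its non-directional mode, for alignment to GRCm38 (mm10), followed by deduplication. The files deposited by the authors give, for each CpG cytosine, raw counts of methylated and of unmethylated reads. Strands were added per dyad, and all 21353092 dyads on the autosomes and X read as CG in the reference. Duplicates were removed by position, so calls are not labelled molecules.

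Groups follow the genotypes in the sample titles, and the labels name no batch. The labels do not say which libraries came from separate donors, so p-values measure the spread between these samples. Promoters past the minimum of 20 calls per library entered edgeR 4.0.16 (R 4.3.3) by a quasi-likelihood test (methylated and unmethylated counts as 2 columns, a coefficient per library), adjusted by Benjamini-Hochberg at 0.05. Pooled levels were compared by two-sided exact permutation over libraries. A level of 0 was given the limit of 3 calls. The scripts were tested on simulated data. Levels and exact tests were computed in Python 3.11.15 (numpy 2.4.6).

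Named promoters were, in each direction, up to 10 called with the largest difference and no overlap, or the 5 largest without overlap where fewer than 5 were called. They were also the 10 lowest and 5 highest, the 3 lowest and 2 most different of each list, and the 5 most different of each RNA list. The members and lists were chosen with earlier results of these data known. Alternatives were other coverage minimums, dyad limits and windows, thinned calls, promoter subsets, other tests, and each library left out.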

Additional observations from a re-analysis of the deposited data

How the results depend on the processing

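No paired analysis was possible because the genotypes share no replicate numbers. The pooled difference (7.16 to 8.29 points), the excess over the difference at CpG-rich promoters (5.43 to 6.76 points) and the median difference (6.28 to 7.36 points) kept their direction in every alternative that used all libraries. With each library left out they ranged from 5.44 to 10.3, from 3.77 to 8.14 and from 4.77 to 9.30 points. The exact test cannot pass 0.05 in this design.

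The count of called promoters was less stable. Instead of 9 it was 3 of 879 promoters at a minimum of 50 calls (176 over all promoters). It was 1 of 482 below 10 dyads and 37 of 4334 below 30 dyads, from the same fit with 209 over all promoters. It was 4 of the 1351 members that had 20 calls within 500 bp of the TSS (104 over all promoters). It was 83 with the likelihood ratio test and 0 with limma after median subtraction (918 and 9 over all promoters). With each library left out it ranged from 0 to 8. The cause was not tested, apart from the smaller or larger number of promoters that the limits leave. A minimum of 10 calls gave the same 9 (211 over all promoters). Removals of promoters were made without a new fit. Since 0 called promoters lay in the segment around Tet2 on chromosome 3 or in shared windows, their removal could only leave the same 9. Thinned calls also gave 9, of which 6 were among these, and the 8 without library 5 held 4 of them. Removal of 4 gene families left 6 of the 9. Removal of members with another CpG-dense start, an alternative chosen after seeing the data, left 8. Limma gave 6 (77 over all promoters), of which 4 were among the 9. Over the named promoters and lists, 1926 recomputed values stayed on the same side of the threshold or within 1 SD, 78 moved by more (list medians among them), and 62, at the 9 called promoters, no longer passed. Many of the 1926 could not move, so their number does not measure stability. Alternatives that only limit or remove promoters leave the difference of a single promoter as it was. No called promoter changed the sign of its difference under any alternative. A promoter had a median of 43 to 73 calls per library, which limits what can be seen at a single one.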
